A study of Bos taurus with 6 samples.

Results

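The genes described here encode the machinery that starts transcription: the subunits of RNA polymerases I, II and III, the general transcription factors, the TBP-associated factors (TAFs) and the Mediator complex. They were chosen by gene symbol alone, as every gene whose single annotated symbol begins with MED, TAF or GTF and a digit, or with POLR1, POLR2 or POLR3. This gave 71 genes of 6337 with a single symbol on the array. Where several probe sets measure a gene, the brightest on average over the 6 arrays was used, which concerned 12 of the 71 genes, with 89 probe sets in all. Another 3 probe sets with several symbols, one of them matching, were left out. By class there were 25 polymerase subunits, 9 subunits of the factors TFIIA to TFIIH, 11 TAFs, 23 Mediator subunits and 3 genes of TFII-I and TFIIIC.

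RNA polymerase II makes messenger RNA, polymerase I the large ribosomal RNA precursor, and polymerase III transfer RNAs and other small RNAs. At a gene's start TFIID, which is TBP with its TAFs, recognises the promoter, TFIIA and TFIIB stabilise it, TFIIF brings in the polymerase, and TFIIE and TFIIH open the DNA. Mediator is a large multi-subunit bridge between activators bound at a distance and this complex, with head, middle, tail and kinase parts. All of it is used by every nucleated cell, white blood cells included.

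White blood cells of Sanhe heifers, a Chinese cattle breed, were profiled on an Affymetrix bovine array, with 3 arrays after cold exposure (after 1, 2 and 3) and 3 before it (before 4, 5 and 6). The exposure was 3 hours outdoors at -32 °C and then 15 hours in a cowshed at 5 °C, and no source used here gives the time of the later blood draw. The animals were healthy, of like age and weight, housed and fed together, and 3 of 30 heifers gave both samples. Which samples come from the same animal is not stated in the labels, and the p-values below treat the 6 arrays as separate. Values are log2 of the probe set intensity, changes are after minus before cold, SD and SE are over 3 arrays a group or from the limma fit, and a gene was called at an adjusted p under 0.05 over all 12763 probe sets. In a mixed blood sample, fewer cells of a type and less RNA per cell cannot be told apart.

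The arrays carried leukocyte RNA. All 4 general leukocyte markers lay high (CD53, CORO1A, LAPTM5 and PTPRC, the lowest of them PTPRC at a mean of 11.74). The 8 measured T cell markers had a median level of 10.81, and their means ran from 6.31 for CD6 to 11.71 for CD3D. The means of the 3 measured B cell markers ran from 9.73 for BLK to 11.47 for MS4A1. The red cell gene HBB was also high (12.01), and so were the probe sets annotated as MYH7 (11.94), a heart and slow muscle myosin, and ALB (9.11), the liver's albumin, neither of them known as a product of white blood cells. Whether these probe sets measure those genes was not checked. Between all pairs of arrays, after 2 and before 6 were the most alike, with a median difference over genes of 0.101, against 0.770 between after 2 and after 3 of a single group.

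None of the 71 genes passed the test. With limma, 0 had an adjusted p under 0.05 and 0 an unadjusted p under 0.05, against 0 and 34 (0.537%) of the 6337 genes. The changes ran from -0.75 for GTF2H1 to 0.57 for MED25, with a median of 0.06 beside 0.05 for all genes, and 38 of the 71 (53.5%) had a higher mean after cold, against 56.3% of all genes. This count depended on single arrays, with 28 (39.4%, against 53.3% of all genes) without after 1 and 26 (36.6%, against 47.1%) without before 6, where the median was -0.07 in both cases. The standard errors of the 71 lay between 0.23 and 0.58. No member had a change of at least 1.5-fold upward (0.142% of all genes), and 6 had one downward, or 8.45%, against 6.82% of all genes. The groups did not overlap in 4 genes, or 5.63% against 5.02%, with MED25 above (2.02% of all genes) and POLR1F, TAF1B and GTF2B below (3% of all genes). With all 6 arrays, each of these shares is close to that of all genes. The shares with a higher mean without after 1 and without before 6 lay below those of all genes. With 3 arrays a group, the smallest p of an exact permutation test is 0.1.

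**Figure D1:**
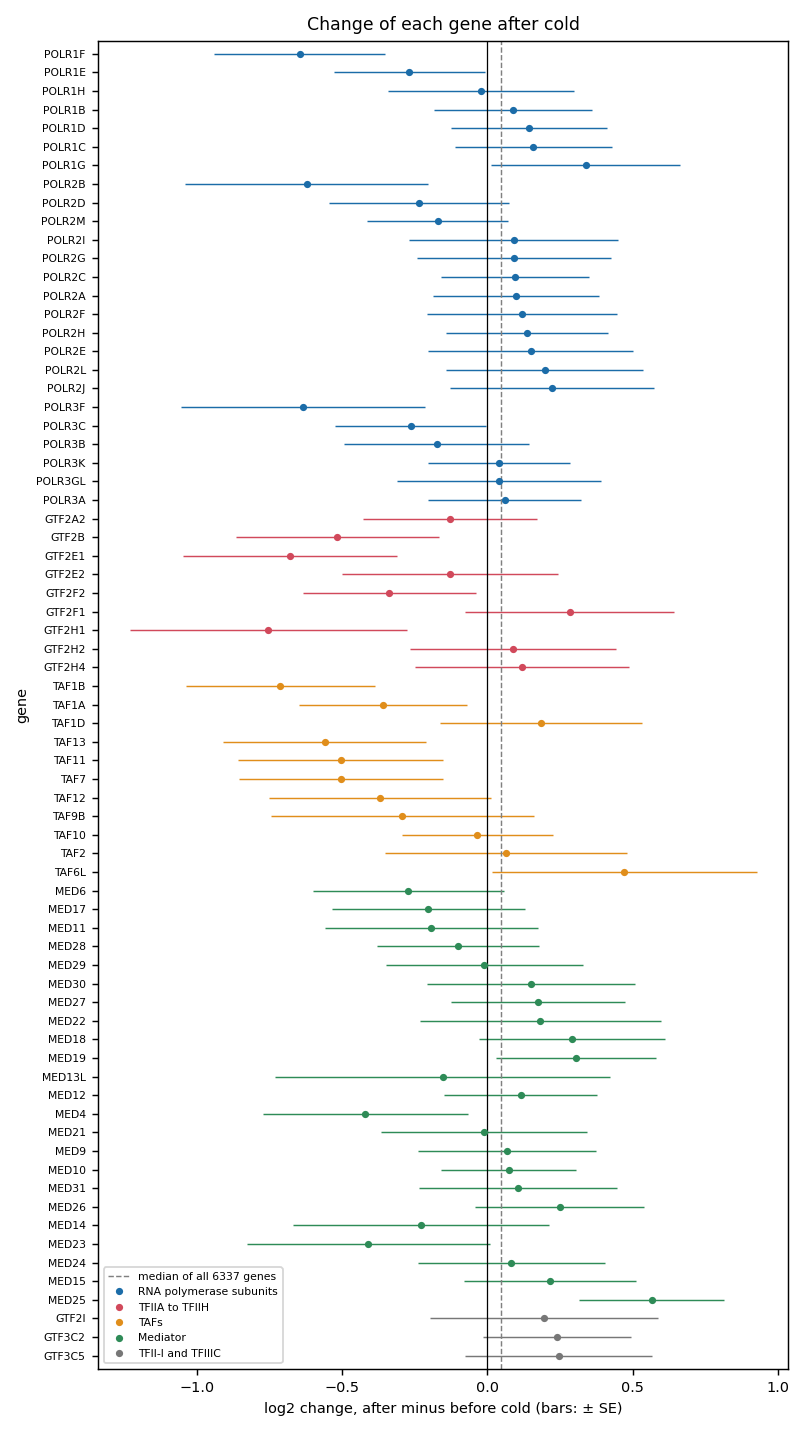
Log2 change after minus before cold (horizontal axis) of each of the 71 genes, coloured by class, with bars of ± 1 SE from the limma fit; the dashed line is the median of all 6337 genes. The changes run from -0.75 (GTF2H1) to 0.57 (MED25), and none passed the adjusted threshold.

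Of the subunits of RNA polymerase II, 12 were measured, and 9 had a slightly higher mean after cold (75%, against 56.3% of all genes). POLR2A, the largest subunit, whose tail of repeats is phosphorylated as the enzyme leaves the promoter, was at 9.46, 9.20 and 9.92 after cold and at 9.50, 9.60 and 9.19 before. The groups overlapped, and the change was 0.10 ± 0.29 (SE, 95% interval -0.56 to 0.75; limma, adjusted p = 1.00). POLR2B, which forms the catalytic centre together with POLR2A, was at 9.77, 10.85 and 9.20 after cold and at 10.52, 10.36 and 10.80 before. The after 2 array held its highest value and after 3 its lowest, so the after group spread over 1.65 units around the before group, and the change was -0.62 ± 0.42 (SE). The 2 genes of the catalytic pair thus had changes of opposite sign. That of POLR2A was smaller than the range of either group, and that of POLR2B was larger than the range of the before arrays but smaller than that of the after arrays.

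The small POLR2 subunits followed POLR2A. POLR2C, E, F, G, H, I, J and L had changes between 0.09 (POLR2I) and 0.22 (POLR2J), and POLR2E, F, H and L among them are shared by all 3 polymerases. POLR2L was at 10.63, 9.96 and 10.87 after cold and at 10.44, 10.60 and 9.84 before, lowest on after 2 and before 6. POLR2D, part of the stalk that reaches toward the RNA exit, differed by -0.23 ± 0.31 (SE), and its other probe set by -0.33 ± 0.47. POLR2M, a regulator that binds the assembled polymerase and makes it depend on Mediator, was among the 3 steadiest genes, with a range of 0.37 over the 6 arrays and a change of -0.17 ± 0.24. The median change of the 12 was 0.10 with all arrays, 0.32 without after 2, -0.02 without after 3 and -0.07 without before 6. Over all genes these medians were 0.05, 0.07, -0.0018 and -0.02. Without after 3, 5 of the 12 were higher (41.7%, against 49.7% of all genes). Without before 6, 3 of the 12 were (25%, against 47.1%).

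RNA polymerase I had 7 measured subunits, 4 of them with a higher mean after cold (57.1%, against 56.3% of all genes). POLR1F, which helps to form the stalk of the enzyme, was at 4.47, 4.75 and 3.92 after cold and at 4.91, 5.18 and 4.98 before. All 3 after values lay below all 3 before values, and the change was -0.65 ± 0.29 (SE, 95% interval -1.32 to 0.03; limma, adjusted p = 1.00). This probe set is dim, above only 3.28% of the genes by mean level, and no detection call was used. POLR1G, part of a dimer on the surface of polymerase I, went the other way, with 6.01, 5.23 and 6.13 after cold and 5.36, 5.76 and 5.23 before, and a change of 0.34 ± 0.32. Its partner POLR1E differed by -0.27 ± 0.26, and its 2 other probe sets by -0.29 ± 0.29 and -0.38 ± 0.25. POLR1C and POLR1D, the assembly platform shared with polymerase III, differed by 0.16 ± 0.27 and 0.14 ± 0.27.

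RNA polymerase III had 6 measured subunits, 3 higher and 3 lower. Its largest subunit POLR3A was at 7.39, 7.11 and 7.66 after cold and at 7.40, 7.42 and 7.16 before, with a change of 0.06 ± 0.26 (SE). POLR3F and POLR3C belong to the subcomplex that this enzyme uses for initiation. POLR3F was at 6.91, 7.60 and 5.94 after cold and at 7.19, 7.44 and 7.72 before, a change of -0.64 ± 0.42 that rested mostly on after 3. POLR3C differed by -0.26 ± 0.26, and POLR3GL, a further member of the subcomplex, by 0.04 ± 0.35, with its other probe sets at -0.05 ± 0.35 and -0.12 ± 0.27. POLR3K had the lowest level of the 71 genes, a mean of 3.75, and with a range of 0.28 it was one of the 3 steadiest.

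TFIIIC, the DNA-binding factor of polymerase III genes, was represented by GTF3C2 and GTF3C5, with changes of 0.24 ± 0.25 (SE) and 0.25 ± 0.32. GTF3C2 was at 8.57, 8.37 and 8.87 after cold and at 8.47, 8.28 and 8.34 before, so the groups overlapped through before 4. GTF2I, which encodes TFII-I, a signal-responsive factor that binds initiator and other elements, differed by 0.19 ± 0.39.

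**Figure D2:**
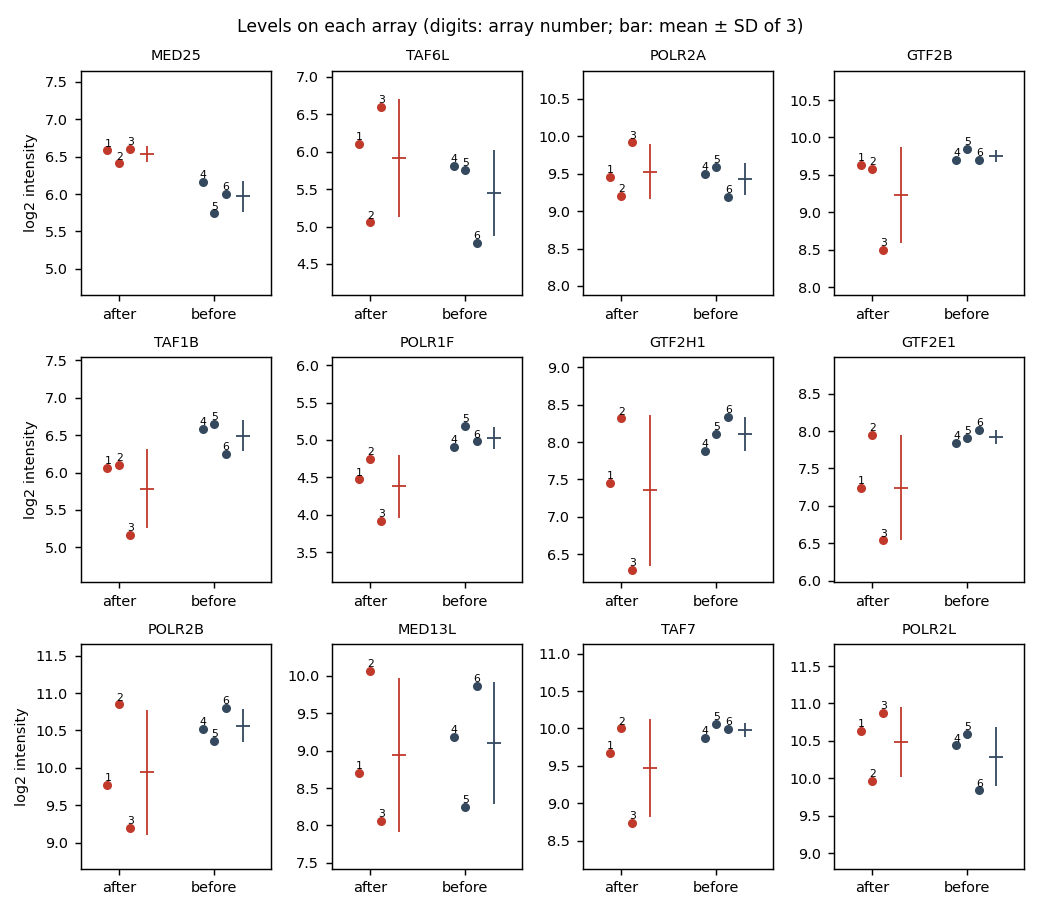
Log2 intensity of 12 genes on each array, after cold on the left and before cold on the right of each panel, with the array number beside each point and the mean ± SD of 3 arrays as a bar. MED25 lies higher after cold and GTF2B, TAF1B and POLR1F lower with no overlap, and in GTF2H1, POLR2B and MED13L after 2 is the highest and after 3 the lowest of the after arrays.

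Of the 9 subunits of TFIIA to TFIIH, the mean after cold was higher in 3 and lower in 6, with a median change of -0.13. The share with a higher mean was 33.3%, against 56.3% of all genes. GTF2B is TFIIB itself, the single protein that joins TFIID at the promoter to the polymerase. It was at 9.63, 9.58 and 8.50 after cold and at 9.70, 9.85 and 9.71 before. The groups did not overlap, but after 1 and after 2 lay just under the lowest before value, and after 3 held most of the difference of means, -0.52 ± 0.35 (SE, 95% interval -1.31 to 0.28). Without after 3 the change was -0.15. The limma adjusted p was 1.00. GTF2A2, the small subunit of TFIIA, was among the 3 genes with the highest probe set values, at 11.23, 10.59 and 10.38 after cold and 10.89, 11.01 and 10.69 before.

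Both TFIIE subunits, which recruit TFIIH, had lower means. GTF2E1 was at 7.24, 7.95 and 6.54 after cold and at 7.84, 7.91 and 8.02 before. Only after 2 reached the before values, and the group means were 7.24 ± 0.70 after cold and 7.92 ± 0.09 before (SD, n = 3 each), a change of -0.68 ± 0.37 (SE) that was -0.33 without after 3 and -1.03 without after 2. GTF2E2 differed by -0.13 ± 0.37. The TFIIF subunits GTF2F1 and GTF2F2 work as a pair and had changes of opposite sign. GTF2F1 was at 8.79, 8.06 and 9.19 after cold and at 8.52, 8.69 and 7.98 before, a change of 0.28 ± 0.36, and GTF2F2 differed by -0.34 ± 0.30.

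Of TFIIH, the helicase and kinase factor that melts the promoter and also repairs DNA, 3 core subunits with a member symbol were measured. GTF2H1 had the largest range of the 71 genes, 2.04 units, with 7.45, 8.32 and 6.30 after cold and 7.88, 8.11 and 8.33 before. Its change was -0.75 ± 0.48 (SE, 95% interval -1.85 to 0.34; limma, adjusted p = 1.00), and its other probe set gave -0.66 ± 0.40. It depended on single arrays, at -0.22 without after 3 and -1.23 without after 2. GTF2H2 and GTF2H4 differed by 0.09 ± 0.36 and 0.12 ± 0.37, so the measured core subunits did not share a direction. Among the TFIIH genes outside the members, the kinase CDK7 was at 7.34, 7.32 and 6.13 after cold and at 7.50, 7.78 and 7.42 before. Its groups did not overlap, as in 5.02% of all genes, and its change was -0.63 ± 0.37. Its assembly partners CCNH and MNAT1 differed by -0.31 ± 0.26 and -0.48 ± 0.39. The helicases ERCC3 and ERCC2 differed by 0.19 ± 0.24 and 0.31 ± 0.33.

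The TAFs were the class with the lowest median change, -0.36, and 8 of the 11 had a lower mean after cold. The share with a higher mean was 27.3%, against 56.3% of all genes. TAF13 and TAF11 form a histone-fold pair in TFIID. TAF13 was at 8.41, 8.34 and 7.30 after cold and at 8.37, 8.78 and 8.59 before, a change of -0.56 ± 0.35 (SE), and its 3 other probe sets gave -0.43, -0.47 and -0.19. TAF11 differed by -0.50 ± 0.35. Both were lowest on after 3, and on each of them after 1 lay among the before values and after 2 just under the lowest.

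TAF7, which checks the activity of the largest TFIID subunit, was at 9.68, 10.00 and 8.74 after cold and at 9.88, 10.06 and 10.00 before. The change was -0.50 ± 0.35 (SE), and here too after 3 alone stood well below the other 5 arrays. TAF12 differed by -0.37 ± 0.38. TAF10, one of the 3 genes with the highest probe set values, was at 11.02, 10.73 and 11.12 after cold and at 11.04, 11.17 and 10.75 before, and its change was -0.03 ± 0.26. TAF2, which contacts the initiator element, differed by 0.06 ± 0.42, and TBP, the DNA-binding centre of TFIID, which is not a member, by -0.0030 ± 0.25. TAF6L, a TAF6 relative of the SAGA-type coactivator, had the third largest range. It was at 6.11, 5.06 and 6.60 after cold and at 5.81, 5.75 and 4.78 before, a change of 0.47 ± 0.46.

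The TAFs of SL1, the promoter factor of polymerase I, were represented by TAF1A, TAF1B and TAF1D. TAF1B was at 6.07, 6.11 and 5.17 after cold and at 6.58, 6.65 and 6.25 before, with no overlap. Its probe set is dim, above only 14.4% of the genes by mean level. The change was -0.71 ± 0.33 (SE, 95% interval -1.46 to 0.03; limma, adjusted p = 1.00). Of its 2 dimmer probe sets, 1 had the same sign but overlapping groups, with -0.34 ± 0.29. The other, at a mean of 4.45, went the opposite way, with 0.11 ± 0.23. In it all after values lay above all before values. TAF1A differed by -0.36 ± 0.29 and TAF1D by 0.18 ± 0.35.

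The medians of the TAFs and of TFIIA to TFIIH depended on single arrays. That of the TAFs was -0.36 with all arrays, -0.14 without after 3 and -0.52 without after 2, and lay between -0.42 and -0.25 without each of the other arrays. On after 3 the TAFs had a median deviation of -0.62 from their means over the 6 arrays, and TFIIA to TFIIH likewise -0.62, against 0.03 for all genes. After 3 was the lowest array for 6 of the 11 TAFs and 6 of the 9 general factors, and for 32.5% of all genes. The general factors had a median of -0.13 with all arrays and -0.04 without after 3. Then 4 of 9 were higher (44.4%, against 49.7% of all genes). Their median was -0.44 without after 2, -0.35 without after 1 and -0.34 without before 5, and lay at -0.12 and -0.21 without before 4 and before 6. The median of all genes was 0.05 with all arrays and lay between -0.02 and 0.07 with single arrays left out.

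**Figure D3:**
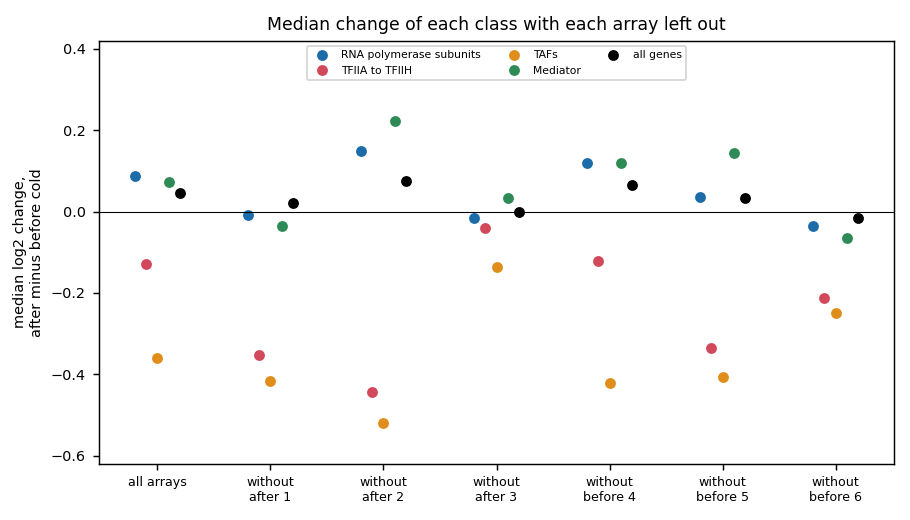
Median log2 change after minus before cold (vertical axis) of 4 classes and of all genes, with all 6 arrays and with each array left out in turn. The TAF median runs from -0.52 without after 2 to -0.14 without after 3, and the polymerase and Mediator medians change sign.

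Mediator had 23 measured subunits, of which 13 were higher and 10 lower on average after cold, and a median change of 0.07. The share with a higher mean was 56.5%, against 56.3% of all genes. The tail, which meets activators, held the gene with the smallest unadjusted p. MED25, a tail subunit bound by several activators, was at 6.58, 6.41 and 6.61 after cold and at 6.16, 5.74 and 6.00 before. The group means were 6.53 ± 0.11 after cold and 5.97 ± 0.21 before (SD, n = 3 each), and all after values lay above all before values. The change was 0.57 ± 0.25 (SE, 95% interval -0.01 to 1.14; limma, unadjusted p = 0.0528, adjusted p = 1.00), and it lay between 0.42 and 0.66 over the other settings and arrays left out. On the 2 arrays that were otherwise most alike, after 2 and before 6, MED25 was the member with the largest difference, 0.41.

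The rest of the tail had no common direction. MED23, which relays signals of growth-factor activators, was at 7.44, 8.26 and 6.88 after cold and at 7.84, 7.46 and 8.50 before, a change of -0.41 ± 0.42 (SE). MED15 differed by 0.22 ± 0.30 and MED24 by 0.08 ± 0.32. MED14, the scaffold that joins the tail to the core, was at 5.71, 6.69 and 5.36 after cold and at 5.95, 5.64 and 6.85 before, a change of -0.23 ± 0.44 with high values on after 2 and before 6.

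In the head, which touches the polymerase, 5 of 10 subunits were higher and 5 lower. MED17, its central subunit, was at 7.75, 8.35 and 7.26 after cold and at 7.87, 7.86 and 8.25 before, with a change of -0.20 ± 0.33 (SE). MED19 was at 8.66, 8.36 and 9.03 after cold and at 8.54, 8.38 and 8.20 before, a change of 0.31 ± 0.28, and MED18 differed by 0.29 ± 0.32. MED6 at -0.27 ± 0.33 lay at the other end. Thus the head spanned changes from -0.27 to 0.31, each within or close to its SE.

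The middle module had 4 of 6 subunits higher. MED10 was the steadiest of the 71 genes, with means of 8.92 ± 0.07 after cold and 8.85 ± 0.05 before (SD, n = 3 each). Its highest value was on after 3 and its lowest, 8.81, on before 4, a range of 0.19. MED26, which brings elongation factors to the polymerase, differed by 0.25 ± 0.29 (SE) and MED4 by -0.42 ± 0.35, with -0.23 ± 0.31 for its other probe set. Of the kinase module, which detaches Mediator from the polymerase, MED12 and MED13L were measured. MED12, which activates the module's kinase, was at 9.28, 9.11 and 9.58 after cold and at 9.27, 9.38 and 8.97 before, a change of 0.11 ± 0.26.

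MED13L, which links the kinase to the core, had the next largest range after GTF2H1, 2.01 units. It was at 8.71, 10.07 and 8.06 after cold and at 9.18, 8.24 and 9.87 before. High values stood on after 2 and before 6 and low ones on after 3 and before 5, so the spread within each group was far larger than the difference between them, -0.15 ± 0.58 (SE). Its 2 other probe sets were also highest on after 2 and before 6, with changes of -0.41 ± 0.61 and -0.42 ± 0.64. CCNC, the cyclin of the kinase module and not a member, differed by -0.26 ± 0.27.

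**Figure D4:**
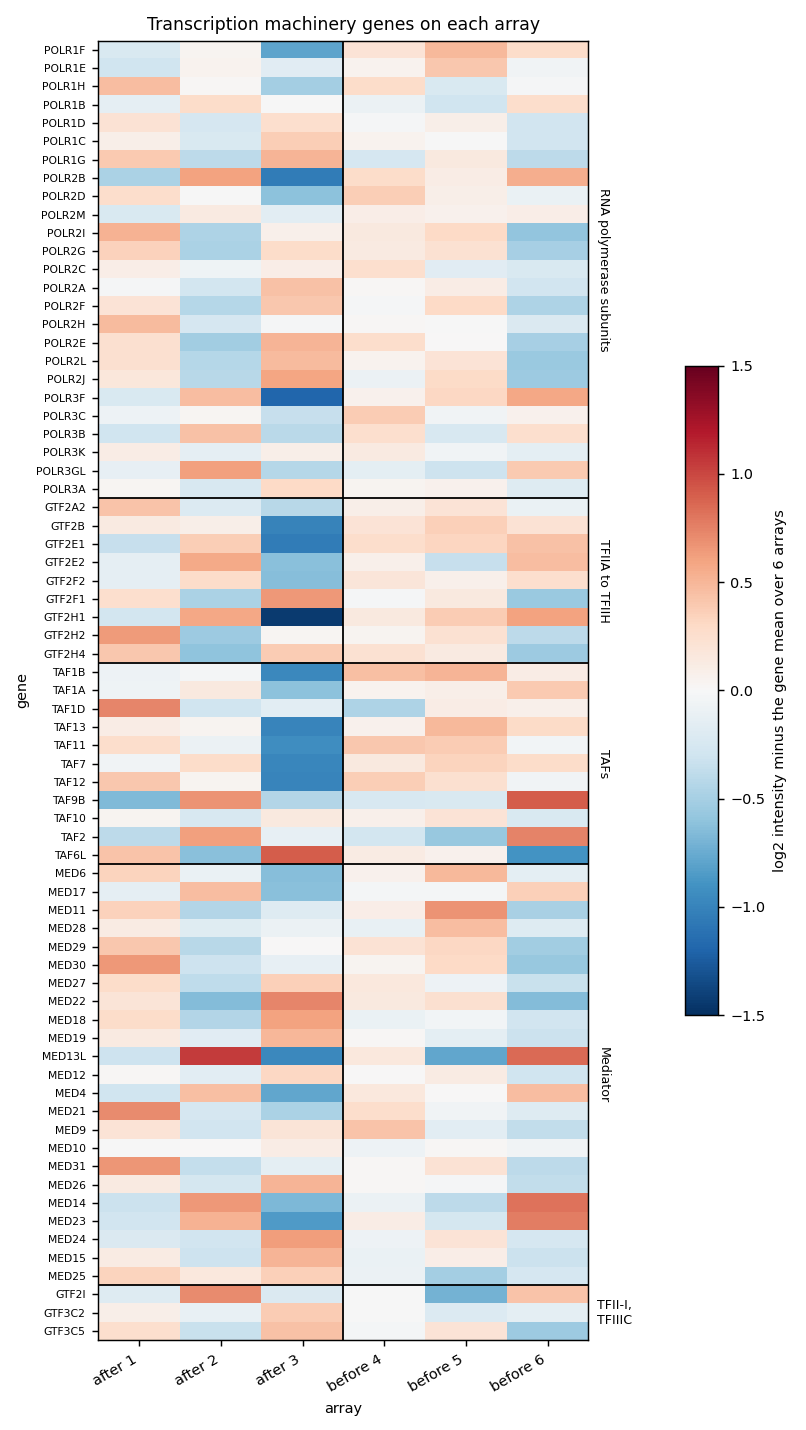
Deviation of each gene's log2 intensity from its own mean over the 6 arrays (colour; red higher, blue lower) for the 71 genes, by class, with the after arrays left of the line and the before arrays right of it. After 2 and before 6 show the same pattern. After 3 is lowest for 27 genes (38.0%, against 32.5% of all genes) and highest for 23 (32.4%, against 36.4%).

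Across the 71 genes the arrays differed in a pattern that cut across the groups. After 2 and before 6 were both above the other 4 arrays in 17 genes, or 23.9% (25.5% of all genes), and both below them in 33, or 46.5% (36.9% of all genes). The first kind included GTF2H1, GTF2E1, GTF2E2, POLR2B, POLR3F, MED4, MED14, MED17, MED23 and MED13L. The other kind included POLR2A, 7 of the small POLR2 subunits, 8 of the 10 Mediator head genes, GTF2H2, GTF2H4, GTF2F1 and TAF6L. Subunits of a single complex therefore fell on both sides. After 3 was the lowest array for 27 genes (38.0%, against 32.5% of all genes) and the highest for 23 (32.4%, against 36.4%). Together these are 50 of 71, and over all genes 4366 of 6337.

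Arrays of a single group differed about as much as arrays of different groups. The median difference over the 71 genes ran from 0.191 to 0.773 in the 6 pairs within a group, and from 0.087 to 0.830 in the 9 pairs between groups. Both the widest pairs, after 2 with after 3 and after 3 with before 6, had 22 genes that differed by over 1 unit, and the closest, after 2 with before 6, had 0. The difference after 3 minus after 2 and the difference before 5 minus before 6 had the same sign in 57 of the 71 genes, or 80.3%, and in 79.2% of all genes. Across the 71 genes, which are not independent replicates, the 2 differences had a Pearson correlation of 0.72, against 0.74 across all genes. Since after 2 and before 6 were nearly alike, both differences subtract nearly the same values, and part of this agreement was built in. The genes of the transcription machinery thus shared this pattern with the rest of the array to about the same extent.

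**Figure D5:**
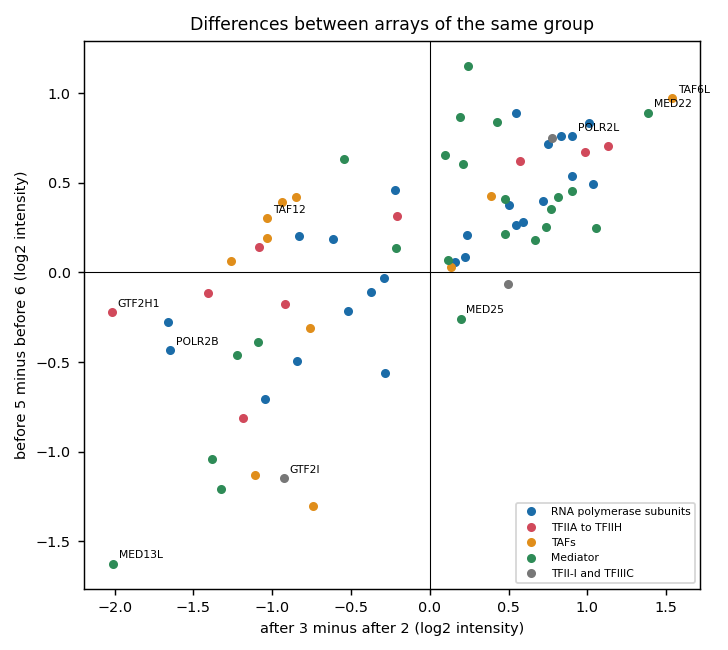
For each of the 71 genes, the difference after 3 minus after 2 (horizontal axis) against before 5 minus before 6 (vertical axis), in log2 intensity and coloured by class. Of the 71 genes, 57 have the same sign on both axes, with MED13L and TAF6L at the ends, and 5 TAFs with low values on after 3 lie at the upper left. Since after 2 and before 6 were nearly alike, part of the agreement was built in.

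Some cell type markers differed between the same arrays, though in the NK and monocyte lists not all members did so alike. The 3 measured neutrophil markers of 7 (S100A8, S100A9 and S100A12) all had their highest values on after 3 and before 5. Their median deviations were -0.02, -0.08 and 0.37 after cold and -0.30, 0.29 and -0.19 before. Their sums ran from 18562 to 24674 after cold and from 15918 to 24276 before. The 5 measured NK and cytotoxic markers of 6 (GNLY, GZMB, KLRK1, NKG7 and PRF1) had median deviations of 0.66, -0.57 and 0.20 after cold and 0.25, -0.04 and -0.56 before. Their summed intensity ran from 2171 to 4787 after cold and from 2142 to 4033 before, and the lowest mean was that of KLRK1, 5.70. The 4 measured monocyte markers of 5 (CD14, CD68, CSF1R and MSR1) had -0.28, -0.31 and 0.47 after cold and 0.07, 0.63 and -0.45 before, with sums of 976 to 1791 after cold and 934 to 1876 before. GZMB and KLRK1 did not follow their list, both being lowest on after 3, and CD14 and MSR1 were not at their lowest on after 2. MSR1 had a change of -0.66 ± 0.28 (SE, unadjusted p = 0.0465 in limma), the one gene of the NK and monocyte lists with an unadjusted p under 0.05. No marker is at 0, and the lowest mean of the monocyte markers was 4.59 for MSR1. The part of cell composition in the values of the transcription machinery genes was not tested.

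The other genes of the pathway gave a like picture. Of 85 listed gene symbols for elongation, pausing, termination, the Integrator complex and promoter factors outside the members, 56 were measured. Of these 0 had an unadjusted p under 0.05 in limma, against 0.537% of all genes. The mean after cold was higher in 31 (55.4%, against 56.3% of all genes) and lower in 25, and the median change was 0.05. The groups did not overlap in 3, or 5.36%, against 5.02% of all genes, with the helicase ERCC3 and the Integrator subunit INTS10 above and CDK7 below. NELFA, a subunit of the factor that holds paused polymerase, had the highest change, 0.43 ± 0.33 (SE), and SNAPC1, a subunit of the factor for small nuclear RNA promoters, the lowest, -0.84 ± 0.58. CDK9, the kinase that releases paused polymerase, differed by 0.21 ± 0.27 and its inhibitor HEXIM1 by 0.20 ± 0.31.

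How many genes had a small unadjusted p depended on which arrays entered and how they were matched. Without after 2, 9 of the 71 had an unadjusted p under 0.05 (12.7%, against 12.5% of all genes). These were POLR2B, GTF2E1, GTF2H1, POLR3F, POLR1F, TAF1B, MED4 and TAF7 with lower means after cold, and TAF6L with a higher one. POLR2B then differed by -1.08 ± 0.31 (SE, unadjusted p = 0.00596 in limma). With samples 1-4, 2-6 and 3-5 matched as a block, 7 of the 71 did (9.86%, against 8.43% of all genes): MED25 and TAF6L with higher, and POLR1F, TAF1B, GTF2E1, MED23 and POLR2B with lower means. The MED25 change kept its value under the block and had a smaller SE, 0.57 ± 0.17 (unadjusted p = 0.0127 in limma). The matching 1-5, 2-6 and 3-4 also gave 7 (9.86%, against 5.11% of all genes). Each matching that did not pair 2 with 6 gave 0 (0.158% to 0.521% of all genes). Which matching is the true one is not known. In none of the fits did a member reach an adjusted p under 0.05, and the smallest was 0.270.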

How the data were processed

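White blood cell RNA was measured on 6 single-colour arrays, 3 after and 3 before cold. The authors deposited 1 intensity per probe set and array on a linear scale, from 3.91 to 18225, with GCOS and RMA as the tools in the submitters' processing notes, without a version. A genome build or filter is not given in the sources used here. On the log2 scale the array medians lay within 0.24 of each other, and no further normalization, pseudocount or filter was applied. The number of arrays limits the precision.

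The platform annotation gave the gene names (8125 of 12763 had a single symbol, 56 several and 4582 none). All 71 genes matched a current gene identifier in RefSeq (assembly ARS-UCD2.0), with 0 symbols changed. The log2 values of all probe sets were fitted with limma 3.58.1 in R 4.3.3 (lmFit and eBayes, no block, two-sided, Benjamini-Hochberg adjustment), after tests on simulated data. Groups were taken from the labels. Whether same-animal samples deviate together could not be checked, since the labels give no shared numbers.

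The members, role groups, pathway list and marker lists were chosen with earlier results of these data known. The rule for named genes took 5 genes a direction by non-overlap and smallest unadjusted p, 14 measured genes fixed by role, the 3 largest and 3 smallest ranges, the 3 highest levels, and genes whose probe sets differ in sign, 29 in all. Other genes in the text were added after their values were seen, to complete a complex. MED1, MED13, POLR1A, TAF1, GTF2A1, GTF3A and GTF3C1 are not analysed here. As alternatives, the dimmest 50% of probe sets were left out, and further fits used an intensity trend, array weights, median centring, quantile normalization, the 6 possible matchings as a block, leaving out arrays, and other uses of several probe sets.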

Additional observations from a re-analysis of the deposited data

How the results depend on the processing

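All alternatives were fixed with earlier results of these data known. In every limma fit run, 0 of the 71 genes had an adjusted p under 0.05, and the replicate block for each of the 6 matchings changed no adjusted call. The count at an unadjusted p under 0.05, 0 with all arrays and no block, was 7 (9.86%) with the replicate block 1-4, 2-6, 3-5 (8.43% of all genes), with 1-5, 2-6, 3-4 (5.11%) and without after 2 and before 6 together (9.44%). The count was 0 with each matching that did not pair 2 with 6 (0.158% to 0.521% of all genes). It was 5 (7.04%, against 6.03%) with array weights, which gave after 1 a weight of 0.00190. With single arrays left out it was 0 to 9, the 9 being without after 2 (12.7%, against 12.5%). Leaving out the dimmest 50% of probe sets leaves 47 genes. The 4 genes whose groups do not overlap then became 1 (2.13%, against 4.57% of all genes left). The 1 left was GTF2B, as MED25, POLR1F and TAF1B were among the dimmest 50%. The 38 with a higher mean became 25 (53.2%, against 57.9%). The count of non-overlapping genes was 35 (49.3%, against 47.9% of all genes) without after 2 and before 6 together. With single arrays left out it was 4 to 34. The 4 (5.63%, against 6.63%) were without after 3 and the 34 (47.9%, against 42.8%) without after 2. It was 8 (11.3%, against 10.5%) without after 1 and 7 (9.86%, against 10.3%) without before 4. The median change, 0.06 with all arrays, was -0.14 with array weights, where 27 had a higher mean (38.0%, against 47.6% of all genes), and -0.07 to 0.09 with single arrays left out, where 26 to 38 did. It was below 0 without after 1 and without before 6.

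Of 541 values of named genes under alternatives, 24 had the opposite sign and 0 passed the threshold, and 17 of the 29 genes kept their sign. POLR3K was at -0.11 with array weights. POLR3GL was at -0.049 without after 2 and before 6 and at -0.043 as the mean of its probe sets. On leaving out each array, the changes ran from -0.38 to 0.048 for GTF2A2, -0.015 to 0.22 for MED12, -0.72 to 0.29 for MED13L, -0.61 to 0.12 for MED14, -0.48 to 0.061 for MED17, -0.098 to 0.26 for POLR2A, -0.43 to 0.014 for POLR2D, -0.029 to 0.46 for POLR2L, -0.077 to 0.20 for POLR3A, -0.26 to 0.27 for POLR3GL, -0.022 to 0.12 for POLR3K and -0.16 to 0.078 for TAF10. Beyond the number of arrays, the cause was not tested. With no measure of background, what dim signal limits was not tested.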
